A study of Mus musculus with 4 samples.

Results

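The transcripts described here are the colony-stimulating factors and their receptor chains, chosen by gene name: 8 of the 54532 genes of the deposited table, of which 3 encode factors (Csf1, Csf2 and Csf3) and 5 encode receptor chains (Csf1r, Csf2ra, Csf2rb, Csf2rb2 and Csf3r). They were measured by sequencing of polyadenylated RNA in 4 libraries of bone marrow-derived macrophages, cells grown for 6 days from marrow of C57BL/6 mice aged 6 to 8 weeks. The medium held 20% conditioned medium of L929 fibroblasts, which is a standard source of the Csf1 protein, so all 4 cultures were exposed to an outside supply of 1 of the 3 factors. The libraries were titled WT and KO without treatment and WT and KO after 3 h of LPS, the bacterial lipopolysaccharide that activates Toll-like receptor 4, and each group was 1 library.

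By the series title the mice were FBXW7f/f, with loxP sites in Fbxw7, or LysM-cre FBXW7f/f, in which Cre is driven from the lysozyme 2 gene in myeloid cells. The genotype tags name FBXW7f/f on both untreated libraries and LysM-cre FBXW7f/f on both LPS libraries, so they do not match the titles, and groups follow the titles throughout. Fbxw7, which encodes a substrate-binding subunit of a ubiquitin ligase, was at 17.9 CPM (read counts per library total, scaled between libraries) in the WT-titled untreated library, 17.2 in the KO-titled untreated library, 9.90 in the WT-titled LPS library and 11.7 in the KO-titled LPS library. It was thus not lower in the KO-titled LPS library, and the 95% counting interval of the untreated ratio, 1.04-fold lower in the KO-titled library, ran from 0.907 to 1.19. A gene count cannot show which exons were read. Lyz1 (lysozyme 1) was at 2.86, 32.9, 33.1 and 2.63 CPM in the same order, which pairs the KO-titled untreated library with the WT-titled LPS library. Lyz2, the lysozyme 2 gene, was at 15253, 8711, 9917 and 18238 CPM in that order, lowest in those 2 libraries. The titles are therefore used as names of libraries, and no direction given below is a checked effect of genotype. The labels do not say how many mice gave each culture.

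Total counts lay between 17610372 and 23835940 per library, so that 3 counts, the upper limit that a count of 0 allows, correspond to between 0.108 and 0.184 CPM. Intervals and this limit cover counting error only. Summed macrophage markers (12 of 12 genes measured, among them Cd68, Adgre1 and Lyz2) lay between 19546 and 32795 CPM. Lyz2, at the levels given above, was the largest single part of this sum in every library. Summed neutrophil markers were at 10.5, 34.5, 30.8 and 7.22 CPM in the order given above, most of it Mmp8, while the defining neutrophil gene Ly6g had 0, 1, 0 and 0 counts and Retnlg had 0 in every library. In RNA from whole cultures, fewer cells of a type and less RNA per cell cannot be told apart.

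The 3 factors are secreted proteins that govern the production and survival of myeloid cells. Csf1 (M-CSF) signals through Csf1r, a receptor tyrosine kinase on which macrophages depend for survival, and Csf3 (G-CSF) signals through Csf3r, a cytokine receptor best known on neutrophils and their precursors. Csf2 (GM-CSF) binds its own alpha chain, Csf2ra, together with the common beta chain Csf2rb, which interleukins 3 and 5 also use. Csf2rb2 encodes a second, closely related beta chain of the mouse that serves interleukin 3 alone.

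The sequences that bear on these genes are shown first. Short-lived messages of cytokines often carry the letters ATTTA repeated in the 3′ UTR, where proteins such as tristetraprolin (Zfp36) bind. The 30 bases with the most ATTTA matches in the 3′ UTR of each factor (GENCODE M21 transcripts, transcript strand, overlapping matches counted, matches in capitals) are given because the factors hold more matches than their receptors.
Csf1: ATTTAaatatctATTTAaaaaataggaagc
Csf2: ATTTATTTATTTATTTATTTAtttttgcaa
Csf3: ATTTAtctctATTTAatATTTAtgcatatt
These windows hold 2, 5 and 3 matches. Of 20323 genes with a 3′ UTR, 17.0% hold a window with at least 2, 0.212% one with at least 5 and 2.26% one with at least 3. Over the whole 3′ UTR the matches number 4 in Csf1, 9 in Csf2 and 6 in Csf3, against 3 in Csf1r and 0 in Csf2ra, Csf2rb, Csf2rb2 and Csf3r. These totals are not scaled by length. The 3′ UTRs hold 2111 bases in Csf1, 317 in Csf2, 669 in Csf3 and 1669 in Csf1r.

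The 250 bases before the RefSeq start (GRCm38.p6) are printed for Csf1, the factor with the clearest LPS response, and for Csf2rb2, the receptor chain that differed most between libraries. Both genes lie on the minus strand, and the sequences run 5′ to 3′ along the gene. Csf1 corresponds to chr3:107760470-107760719 and Csf2rb2 to chr15:78305722-78305971. Capitals mark a match to the NF-kB consensus in Csf1 and a match to the PU.1 purine box GAGGAA in Csf2rb2, both read on the opposite strand.
Csf1: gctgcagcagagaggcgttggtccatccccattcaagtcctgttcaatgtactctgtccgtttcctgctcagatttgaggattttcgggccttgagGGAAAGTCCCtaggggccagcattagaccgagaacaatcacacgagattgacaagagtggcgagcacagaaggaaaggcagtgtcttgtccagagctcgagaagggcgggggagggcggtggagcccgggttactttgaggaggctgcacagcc
Csf2rb2: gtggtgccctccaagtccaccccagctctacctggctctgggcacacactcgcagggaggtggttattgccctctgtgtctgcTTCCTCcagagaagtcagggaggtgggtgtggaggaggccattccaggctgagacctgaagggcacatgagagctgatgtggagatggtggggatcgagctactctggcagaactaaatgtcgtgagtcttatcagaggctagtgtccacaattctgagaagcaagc
The Csf1 match lies at positions -154 to -145 from the start and the Csf2rb2 match at -167 to -162. Of 32851 promoter windows of the same length searched on both strands, 7.25% hold a match to the NF-kB consensus and 23.3% hold GAGGAA. The AP-1 letters TGANTCA (6.75% of windows), the C/EBP letters TTGCNNAA (9.56%) and TATAAA (12.4%) were not found in either window. Of the 8 genes, 5 matched the promoter table. Among these, Csf3r also held an NF-kB match, at -129 to -120, and GAGGAA at -86 to -81. Csf2ra held GAGGAA at -14 to -9 and at -8 to -3. Neither match was thus particular to the 2 genes printed. A match is a string of letters and was not tested as a binding site.

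Csf1 was low in both untreated libraries and high in both LPS libraries. The gene lies at chr3:107741048-107760469 on the minus strand (mm10), and its counts were 84 in the WT-titled untreated library, 116 in the KO-titled untreated library, 1902 in the WT-titled LPS library and 1631 in the KO-titled LPS library. Scaled, these are 3.81, 4.19, 111 and 99.8 CPM. The levels with and without LPS did not overlap, which held for 6 of the 7 members with a mean of 1 CPM or more (3 higher and 3 lower with LPS, all but Csf2ra) and for 72.7% of 12326 genes (34.6% higher and 38.1% lower). Csf3, among the 3 higher, reached that mean only through the WT-titled LPS library. Between WT-titled libraries, Csf1 was 29.1-fold higher with LPS (95% counting interval 23.4 to 36.6), and between KO-titled libraries it was 23.8-fold higher (19.7 to 29.0). In a model of all 4 libraries with a term for treatment and a term for title (edgeR quasi-likelihood test, Benjamini-Hochberg adjustment over all genes tested), Csf1 rose by 4.75 ± 0.24 on the log2 scale (± is the standard error, adjusted p = 0.00438). Csf1 was the one gene of the 6 tested there that passed at 0.05, where 14.5% of 13989 genes passed (9.35% rose and 5.14% fell). The model leaves 1 residual degree of freedom, in which a difference of the LPS response between titles is not separated from spread between cultures. EdgeR also borrows dispersion across genes, and nothing in the labels says that the cultures were separate. The p-value is therefore not a measure against variation between replicate cultures.

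Csf3, at chr11:98701263-98703629 on the plus strand, was detected mainly in 1 library. It had 0 counts in the WT-titled untreated library, 2 in the KO-titled untreated library, 134 in the WT-titled LPS library and 8 in the KO-titled LPS library. The WT-titled LPS library thus held far more Csf3 reads than any other. Between WT-titled libraries it was at least 57.3-fold higher with LPS, taking 3 counts as the untreated limit. That bound leaves out the counting error of the 134 reads, and the exact 95% binomial interval began lower, at 46.0-fold. Between KO-titled libraries the ratio was 6.77-fold, with a counting interval from 1.35 to 65.4 that reflects the 2 and 8 counts. With LPS, Csf3 was 15.9-fold lower in the KO-titled library than in the WT-titled library (7.86 to 37.7). Lyz1 was lower in the same library, by 12.6-fold (9.23 to 17.6), as were the summed neutrophil markers, at 7.22 against 30.8 CPM, and their part in the Csf3 result was not tested. Csf3 reached the mean of 1 CPM over the 4 libraries that the 2-library comparisons require only through the WT-titled LPS library. It did not pass edgeR's count filter and so has no p-value in that model. Without the filter the edgeR LPS effect was 5.77 (adjusted p = 1.36e-06), on 134 counts in 1 LPS library and 8 in the other. Leaving out the filter also changed other members' edgeR adjusted p-values, from 0.165 to 0.00294 for Csf2rb2 and from 0.363 to 0.430 for Csf1r. In the authors' deposited table, which also has 1 library per group, Csf3 had an adjusted p-value of 1.61e-07 with LPS between the titles (log2 fold -3.95) and of 0.0944 for LPS between KO-titled libraries.

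Csf2, at chr11:54247271-54249667 on the minus strand, was at the limit of detection. Its counts were 0 in both untreated libraries and 2 in each LPS library. No difference was detectable at this depth. The antisense gene that overlaps Csf2, Gm12223, had 0 counts in every library. Of the other ligands that use these receptor families, Il3 and Il5 had 0 counts in all 4 libraries and Il34, the second ligand of Csf1r, had at most 1. Among the 6 genes of that list, 2 were measured at a mean of 1 CPM or more and neither was called in any 2-library comparison.

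**Figure D1:**
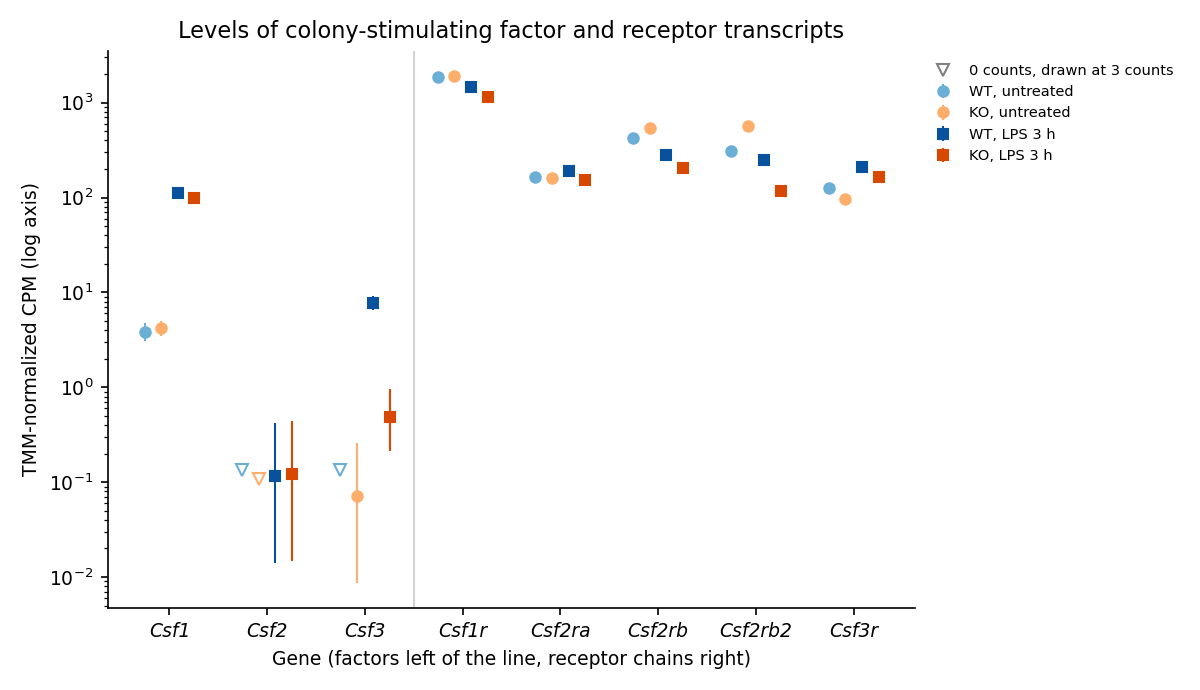
Level of each gene in each library, in normalized CPM on a log axis, with vertical lines for the 95% counting interval (hidden by the symbol where short) and open triangles at the level of 3 counts where a library had 0. Csf1 stands at 3.81 and 4.19 CPM without LPS and at 111 and 99.8 CPM with LPS, while the 5 receptor chains stand between 97.4 and 1891 CPM in every library.

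Csf1r was the most abundant of the 8 transcripts in every library. Per length, its level was 372 FPKM (the authors' length-scaled values) in the WT-titled untreated library, 373 in the KO-titled untreated library, 304 in the WT-titled LPS library and 241 in the KO-titled LPS library. Only 0.363, 0.413, 0.889 and 1.23% of the 22046 protein-coding genes had a higher FPKM in those libraries. Both LPS libraries were below both untreated libraries, by 1.26-fold between WT-titled libraries (1.24 to 1.28) and by 1.65-fold between KO-titled libraries (1.62 to 1.68). Neither ratio reached the 2-fold size used for a call. The edgeR LPS effect on Csf1r was -0.49 ± 0.34 on the log2 scale and did not pass (adjusted p = 0.363). As stated for Csf1, the p-value of that model is not a measure against variation between replicate cultures. The gene lies at chr18:61105572-61132149 on the plus strand and overlaps the end of Hmgxb3, which had between 298 and 663 counts against at least 18722 for Csf1r.

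The balance of ligand and receptor transcripts shifted with the Csf1 level. Csf1r exceeded Csf1 527-fold in FPKM in the WT-titled untreated library and 487-fold in the KO-titled untreated library. With LPS the ratio was 14.4 in the WT-titled library and 12.4 in the KO-titled library. Csf1 itself stood at 0.707 and 0.765 FPKM untreated, with 45.8 and 45.5% of protein-coding genes above it, and at 21.1 and 19.4 FPKM with LPS, with 10.8 and 11.6% above it.

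Csf3r, at chr4:126024550-126044440 on the plus strand, was the one receptor chain higher in both LPS libraries than in both untreated libraries, although under scaling by library totals the KO-titled LPS library was below the WT-titled untreated library (-0.19 on the log2 scale). It was at 125 CPM in the WT-titled untreated library, 97.4 in the KO-titled untreated library, 209 in the WT-titled LPS library and 163 in the KO-titled LPS library. The LPS ratio was 1.68-fold in WT-titled libraries (1.60 to 1.77) and 1.67-fold in KO-titled libraries (1.58 to 1.76), and the difference of the 2 log2 responses was -0.01 with a 95% counting interval from -0.11 to 0.10. In edgeR the effect was 0.78 ± 0.21 (adjusted p = 0.0750). It passed when title was left out of the model (adjusted p = 0.0442 by edgeR), but not without the KO-titled untreated, the WT-titled LPS or the KO-titled LPS library (edgeR adjusted p = 0.184, 0.126 and 0.0553). With library totals the edgeR effect was 0.21 (adjusted p = 0.501). The neutrophil marker sum was highest in the KO-titled untreated library, where Csf3r was lowest, and its part in the Csf3r levels was not tested.

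Csf2ra, at chr19:61224402-61228418 on the minus strand, had the narrowest range of the receptor chains at this scaling, though not with library totals. Its level was 165 CPM in the WT-titled untreated library, 162 in the KO-titled untreated library, 189 in the WT-titled LPS library and 152 in the KO-titled LPS library. The WT-titled LPS library was the highest and the KO-titled LPS library the lowest, so the treated and untreated levels overlapped. With library totals they did not, and both LPS libraries were below both untreated libraries (-0.28 to -0.69 on the log2 scale). Its LPS ratio was 1.15-fold higher between WT-titled libraries (1.10 to 1.21) and 1.07-fold lower between KO-titled libraries (1.02 to 1.12). On the log2 scale these are 0.20 and -0.09, against -0.41 and -0.56 with library totals. The edgeR LPS effect was 0.09 ± 0.22 (adjusted p = 0.807).

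The beta chains Csf2rb and Csf2rb2 had a different pattern, with the KO-titled untreated library highest and the KO-titled LPS library lowest for both. Of the monocyte markers (5 of 6 measured at a mean of 1 CPM, summed to 38.6, 41.9, 29.3 and 28.6 CPM in the order above), Ccr2 was at 4.94, 23.9, 11.4 and 1.10 CPM and Ly6c2 at 0.590, 5.60, 3.61 and 0.428, while F13a1 was at 17.1, 5.13, 9.08 and 22.2. The part of such cells in the beta chain levels was not tested. Csf2rb, at chr15:78325752-78353847 on the plus strand, stood at 57.0 FPKM in the WT-titled untreated library, 71.5 in the KO-titled untreated library, 38.6 in the WT-titled LPS library and 29.0 in the KO-titled LPS library. Both LPS libraries were below both untreated libraries. The ratio was 1.51-fold lower with LPS between WT-titled libraries (1.46 to 1.57) and 2.62-fold lower between KO-titled libraries (2.53 to 2.72). In edgeR the LPS effect was -0.96 ± 0.30 (adjusted p = 0.101). It passed with title left out of the model (edgeR adjusted p = 0.0316), with library totals (edgeR, 0.0318) and in DESeq2 (0.0494). It did not pass in limma-voom (adjusted p = 0.0799). With title left out it did not pass without the KO-titled untreated or the KO-titled LPS library (edgeR adjusted p = 0.101 and 0.115).

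Csf2rb2, at chr15:78282507-78305721 on the minus strand, had the widest range of the receptor chains. It was at 64.4 FPKM in the WT-titled untreated library, 115 in the KO-titled untreated library, 52.3 in the WT-titled LPS library and 25.6 in the KO-titled LPS library. Both LPS libraries were again the lowest. The LPS ratio was 1.26-fold lower between WT-titled libraries (1.21 to 1.31) and 4.78-fold lower between KO-titled libraries (4.56 to 5.01). With the untreated libraries exchanged between titles, since the Lyz1 levels go against the titles, Csf2rb2 was 2.28-fold lower in the WT-titled LPS library and 2.64-fold lower in the KO-titled LPS library. The edgeR LPS effect of -1.26 ± 0.51 did not pass (adjusted p = 0.165), while DESeq2 gave an adjusted p of 0.0313 and limma-voom 0.127. With title left out it passed only without the WT-titled untreated or the WT-titled LPS library (edgeR adjusted p = 0.0287 and 0.0490). In the authors' deposited table the LPS change between KO-titled libraries had an adjusted p-value of 4.05e-06 for Csf2rb2 (log2 fold -2.26) and of 0.00719 for Csf2rb (log2 fold -1.39), and for Csf2rb2 with LPS between the titles it was 0.297.

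Csf2rb and Csf2rb2 are neighbours, 20030 bases apart in opposite orientation, and their coding sequences are near copies. Over 2631 aligned coding bases, 95.2% were identical, with 126 mismatches. The ungapped coding stretch of 150 bases with the most mismatches starts at base 300 of Csf2rb and base 303 of Csf2rb2. It holds 25 of these mismatches (in capitals) and shows the kind of position by which reads of the pair can be told apart. Chosen as the extreme, it is not typical of the pair.
Csf2rb: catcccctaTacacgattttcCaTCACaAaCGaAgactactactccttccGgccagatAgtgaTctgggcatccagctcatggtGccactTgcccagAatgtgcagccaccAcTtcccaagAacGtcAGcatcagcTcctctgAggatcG
Csf2rb2: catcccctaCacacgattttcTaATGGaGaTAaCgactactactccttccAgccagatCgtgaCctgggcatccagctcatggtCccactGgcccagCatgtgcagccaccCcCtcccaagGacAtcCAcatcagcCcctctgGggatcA
Of all windows of 125 bases, the shorter of the stated read lengths, 4.98% of the Csf2rb transcript and 5.16% of the Csf2rb2 transcript occur without change in the other gene. How the authors counted reads that fit both genes is not stated in the labels, so the split of counts between the pair carries that uncertainty.

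As a share of the counts of both beta chain genes, Csf2rb2 made up 42.4% in the WT-titled untreated library (exact 95% binomial interval 41.6 to 43.2), 51.1% in the KO-titled untreated library (50.6 to 51.7), 46.9% in the WT-titled LPS library (45.9 to 47.9) and 36.5% in the KO-titled LPS library (35.2 to 37.8). The 4 intervals do not overlap. The higher shares were in the KO-titled untreated library and the WT-titled LPS library, the libraries in which Lyz1 was at 32.9 and 33.1 CPM. The relation was not tested. Relative to the alpha chain, Csf2ra exceeded Csf2rb 1.53-fold and 1.18-fold in FPKM in the untreated libraries titled WT and KO, and 2.67-fold and 2.91-fold in the LPS libraries titled WT and KO.

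**Figure D2:**
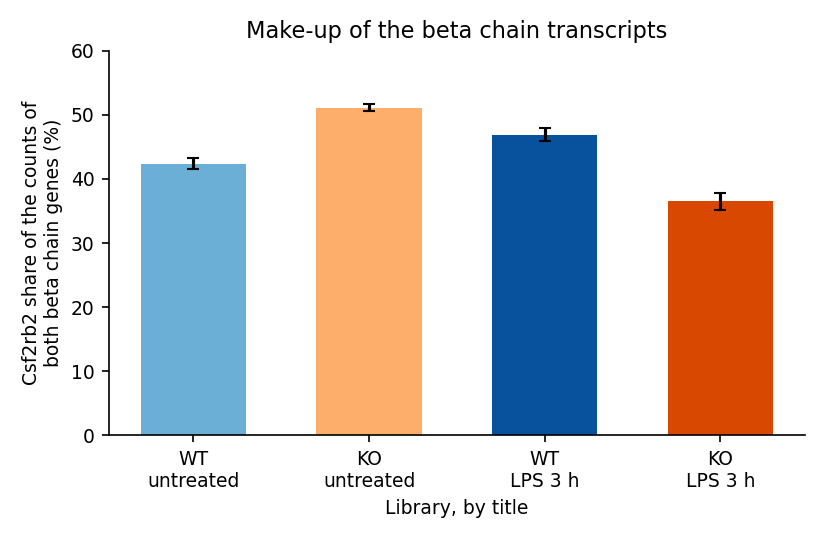
Csf2rb2 counts as a percent of the counts of Csf2rb and Csf2rb2 together, 1 bar per library, with exact 95% binomial intervals as error bars. The share is 51.1% in the KO-titled untreated library and 36.5% in the KO-titled LPS library, with the WT-titled libraries between them at 42.4 and 46.9%.

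Set side by side, the LPS comparisons called different numbers of these genes. A gene was called in a comparison of 2 libraries at a 2-fold or larger ratio (log2 CPM, prior count 2) with a counting interval that excluded no change, and 7 of the 8 genes had the mean of 1 CPM needed, all but Csf2. Between WT-titled libraries, 2 of these 7 were called, Csf1 and Csf3, both higher, where 30.4% of 12326 genes were called (15.4% higher and 15.0% lower). Between KO-titled libraries, 4 of 7 were called, Csf1 and Csf3 higher and Csf2rb and Csf2rb2 lower, where 32.4% of 12326 genes were called (14.6% higher and 17.8% lower). Csf3 is among the 7 only through the WT-titled LPS library, where it was high. Leaving Csf3 out, the calls are Csf1 alone between WT-titled libraries, and Csf1, Csf2rb and Csf2rb2 between KO-titled libraries. The median log2 ratio of the 7 genes was 0.20 and -0.09 in these comparisons, beside -0.01 and -0.07 over all genes. Scaling by library totals moved the median of all genes by -0.60 between WT-titled libraries and by -0.46 between KO-titled libraries. It also moved the share of calls that were higher from 50.7 to 22.2% and from 45.0 to 22.6%. Under that scaling Csf2rb was also called between WT-titled libraries (-1.21) and Csf1r between KO-titled libraries (-1.19), and Csf3 was no longer called between KO-titled libraries. The latter call, on 8 against 2 counts, was also lost at a mean of 5 CPM, at 4-fold and with FPKM plus 1.

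**Figure D3:**
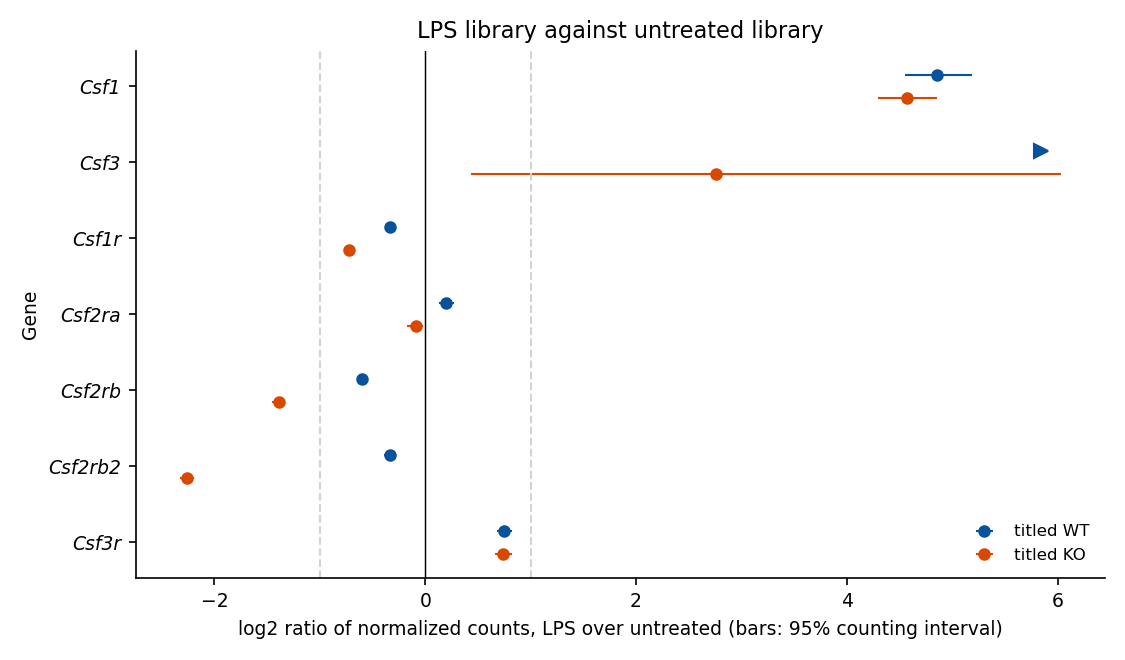
Log2 ratio of normalized counts with LPS over without, for WT-titled libraries and titled KO, with bars for the 95% counting interval, dashed lines at 2-fold and an arrowhead for a lower bound against 0 counts. Csf1 lies far to the right for both titles, Csf2rb2 lies near -0.33 for WT-titled libraries and -2.26 for KO-titled libraries, and Csf3r has nearly the same ratio for both.

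The difference of the LPS responses, KO-titled libraries minus WT-titled libraries, was -1.92 on the log2 scale for Csf2rb2 (95% counting interval -2.01 to -1.83), -0.79 for Csf2rb (-0.87 to -0.72), -0.39 for Csf1r (-0.43 to -0.36) and -0.29 for Csf2ra (-0.39 to -0.20). For Csf3 it was -4.56 (-7.09 to -2.04), a fitted value that rests on 0 and 2 untreated counts. For Csf1 it was -0.29 with an interval from -0.70 to 0.13, which includes no difference. The interval excluded 0 for 5 of the 7 members with a mean of 1 CPM or more. Csf3 is among these only through the WT-titled LPS library. Over all genes the interval excluded 0 for 60.7% of 12326, and the 2 shares were not compared by a test. With the untreated libraries exchanged between titles, the difference was -0.21 for Csf2rb2 (-0.29 to -0.12), -0.09 for Csf2rb (-0.17 to -0.02), -0.34 for Csf1r and -0.72 for Csf3r (-0.82 to -0.61). The interval then excluded 0 for 6 of the same 7 members and for 37.8% of 12326 genes. The size of the difference for both beta chains thus rests on which untreated library each LPS library is set against. Each group is 1 library, so spread between cultures is not part of these intervals.

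Untreated, the KO-titled library held more of both beta chains than the WT-titled library, by 1.81-fold for Csf2rb2 (1.76 to 1.86) and 1.27-fold for Csf2rb (1.24 to 1.31), and less Csf3r, by 1.28-fold (1.21 to 1.35). Csf1 was 1.10-fold higher with an interval from 0.824 to 1.48. Csf1r was 1.02-fold higher and Csf2ra 1.01-fold lower. No member reached 2-fold, against a background of 5.18% of 12326 genes called (3.16% higher, 2.03% lower).

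With LPS, all 7 measured members were lower in the KO-titled library than in the WT-titled library, as were 51.5% of 12326 genes. Csf3 is among these 7 only through the WT-titled LPS library, where it was high. The ratio was 15.9-fold for Csf3, as given above, and 2.09-fold for Csf2rb2 (1.98 to 2.21), and these 2 were called, against a background of 8.23% of 12326 genes (3.42% higher, 4.81% lower). The others were smaller, 1.36-fold for Csf2rb (1.30 to 1.42), 1.29-fold for Csf1r (1.27 to 1.31), 1.29-fold for Csf3r (1.22 to 1.35), 1.25-fold for Csf2ra (1.18 to 1.31) and 1.11-fold for Csf1 (1.04 to 1.19). The sign of the ratio was opposite without and with LPS for Csf2rb2, Csf2rb, Csf1r and Csf1, although for Csf1 the untreated interval included no change and for Csf1r the untreated log2 ratio was 0.03, or 0.00 with DESeq2 size factors and -0.08 with library totals. Lyz1 also had opposite signs, 11.5-fold higher untreated (8.92 to 15.1) and 12.6-fold lower with LPS, and its part in the members' ratios was not tested.

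**Figure D4:**
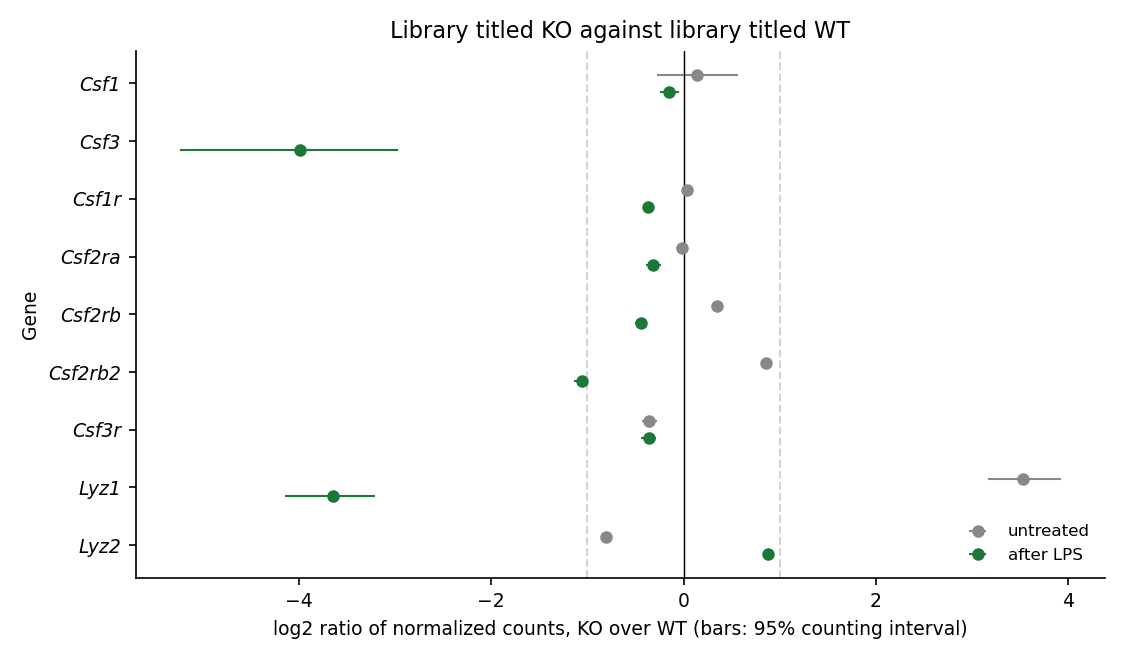
Log2 ratio of normalized counts, KO-titled library over WT-titled library, untreated and with LPS, with bars for the 95% counting interval and dashed lines at 2-fold. Csf3 is not drawn untreated because 1 library had 0 counts. Csf2rb2 and Lyz1 lie right of 0 untreated and left of 0 with LPS, and Csf3r lies at -0.36 in both.

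In the edgeR model none of the 13989 genes tested passed for title at an adjusted p under 0.05 (0%). At an unadjusted p under 0.05 there were 39 genes by edgeR, 30 by DESeq2 and 62 by limma-voom, and by adjusted p there were 0 by each tool. No member passed for title. The title term averages the untreated and LPS ratios, so ratios of opposite sign largely cancel in it. For Csf2rb2 the log2 ratios were 0.86 untreated and -1.06 with LPS, and the edgeR title effect was -0.11 ± 0.51. The model therefore cannot show a title difference that changes sign with LPS.

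The genes that carry the signal of these receptors inside the cell were taken from lists compiled from textbook knowledge. Cytokine receptor chains bind Janus kinases and Src-family kinases, and of 23 kinases and adaptors measured, 6 were higher and 1 was lower between WT-titled libraries, and 5 were higher and 0 lower between KO-titled libraries. Beside this list and each list below, 15.4% of 12326 genes were called higher and 15.0% lower between WT-titled libraries. Between KO-titled libraries 14.6% were higher and 17.8% lower. In edgeR 9.35% of 13989 genes rose with LPS and 5.14% fell. No list was tested as a set against these shares. The median log2 ratio of the list was 0.39 and 0.27, beside -0.01 and -0.07 over all genes. By edgeR 5 rose with LPS and 0 fell, whereas with scaling by library totals 3 rose and 4 fell. Under that scaling 4 were called higher and 3 lower between WT-titled libraries, and 4 higher and 2 lower between KO-titled libraries. Jak2, the kinase bound by the common beta chain, rose by 3.96 ± 0.29 on the log2 scale (adjusted p = 0.00538), with 40.7 and 41.9 CPM in the untreated libraries titled WT and KO and 546 CPM in the KO-titled LPS library. Src rose by 3.53 ± 0.44 (adjusted p = 0.0124), and Sos1, a Ras exchange factor, by 2.17 ± 0.23 (adjusted p = 0.00911), by the same edgeR test. Lyn, a Src-family kinase of myeloid cells, rose by 1.61, and with library totals it did not pass (edgeR adjusted p = 0.0598).

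All 4 STAT transcription factors used by these receptors were higher with LPS between KO-titled libraries and 3 of 4 between WT-titled libraries, and 3 rose in edgeR. Stat5a, the factor most closely tied to GM-CSF signalling, rose by 2.71 ± 0.21 (edgeR adjusted p = 0.00601). Stat3, which Csf3r activates, rose by 1.71 ± 0.24 (edgeR adjusted p = 0.0169). With library totals 2 of the list were higher in each LPS comparison, and 2 rose in edgeR. Stat5b was called only between KO-titled libraries, at 1.01 on the log2 scale, and between WT-titled libraries its ratio was 0.59, or -0.02 with library totals.

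Of 17 measured feedback inhibitors, 8 were higher and 5 lower between WT-titled libraries, 5 higher and 4 lower between KO-titled libraries, and 4 rose and 4 fell in edgeR. With library totals the counts were 6 and 7, 4 and 5, and 4 and 6. The 4 that rose block cytokine receptor signalling. Socs1 rose by 7.22 ± 0.38 and Socs3, which binds the receptor of Csf3, by 7.12 ± 0.35 (edgeR adjusted p = 0.00438 for each). Cish, an inhibitor of STAT5 signalling, rose by 5.60 ± 0.41 (edgeR adjusted p = 0.00538), from 10 and 17 counts untreated to 521 and 357 with LPS. Ptpn2, a phosphatase of Janus kinases, rose by 1.85. The 4 that fell were the adaptors Sla, Dok2 and Dok3 and the lipid phosphatase Inpp5d (SHIP1), by -2.01, -1.40, -1.52 and -1.24 on the log2 scale.

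Transcripts listed as targets of STAT5 divided as well, and the direction in which STAT5 acts on each was not checked. Of 10, 6 were higher and 1 lower between WT-titled libraries, and 3 higher and 2 lower between KO-titled libraries. In edgeR Cish, Pim1 and Ccnd2 rose and Bcl2l1 fell. With library totals the counts were 5 and 3, 3 and 3, and 3 and 2. Pim1, a survival kinase, rose by 4.16 ± 0.41 (edgeR adjusted p = 0.00783) and Ccnd2, a G1 cyclin, by 3.88 ± 0.45 (edgeR adjusted p = 0.0106), while Bcl2l1, which encodes Bcl-xL, changed by -1.10 ± 0.20 (edgeR adjusted p = 0.0304).

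Of 14 transcription factors known to act on the Csf1r gene, 7 were higher and 3 lower between WT-titled libraries and 5 higher and 3 lower between KO-titled libraries, and 5 rose and 3 fell in edgeR. Cebpa, a myeloid lineage factor, had 3178 and 2941 counts in the untreated libraries titled WT and KO and 96 and 73 in the LPS libraries, and fell by 4.59 on the log2 scale (edgeR adjusted p = 0.00438). Maf changed by -1.71, while Mitf rose by 2.22, Tfec by 3.15, Egr1 by 2.25, Ets1 by 1.60 and, not with library totals, Ets2 by 1.32. Csf1r itself did not pass, at -0.49.

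Among 9 regulators of AU-rich messages, to which the ATTTA letters shown above belong, 2 were higher and 2 lower in each LPS comparison. The same counts, 2 and 2, passed in edgeR (1 rose and 3 fell with library totals). Under library totals 2 were called higher and 3 lower between WT-titled libraries, and 1 higher and 3 lower between KO-titled libraries. Zfp36 rose by 1.60 ± 0.29 (edgeR adjusted p = 0.0285, or 0.0531 with library totals) and Zc3h12a, the endonuclease Regnase-1, by 2.08 ± 0.25 (edgeR adjusted p = 0.0114). Zfp36l1 and Zfp36l2, relatives of Zfp36, changed by -3.03 and -2.82. Of 5 measured proteases and cofactors that shed Csf1 or Csf1r from the cell surface, 1 was higher between WT-titled libraries and 2 between KO-titled libraries, 0 were lower, and Rhbdf2, which guides the protease Adam17 to the surface, rose by 3.13 ± 0.25 (edgeR adjusted p = 0.00601). With library totals 1 protease was lower in each comparison and 1 fell in edgeR.

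Genes typical of marrow cells grown in GM-CSF had no common direction. Of 6 measured at a mean of 1 CPM, 2 were higher and 1 lower with LPS between WT-titled libraries, and 1 was higher and 0 lower between KO-titled libraries, and none of the 8 tested passed in edgeR. With library totals 2 were higher and 3 lower, then 1 higher and 2 lower, and 1 fell in edgeR. Inhba, which encodes the activin A subunit, had 3 and 76 counts in the untreated libraries titled WT and KO and 1167 and 75 in the LPS libraries titled WT and KO. Itgax (CD11c) had 113, 37, 36 and 243 counts in that order, so the libraries high in Inhba within a treatment were low in Itgax. Of 13 genes typical of macrophages grown in M-CSF, 4 were higher and 3 lower between WT-titled libraries and 2 higher and 1 lower between KO-titled libraries, and 2 rose (the chemokine Ccl2 and, not with library totals, the mannose receptor Mrc1) and 1 fell (Maf) in edgeR, against 2 and 3, 1 and 2, and 1 and 1 with library totals. Of the 2 measured receptors of the same families, Il3ra, the alpha chain for interleukin 3, had 986, 1552, 1409 and 1030 counts, and Kit had 0, 36, 47 and 46.

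**Figure D5:**
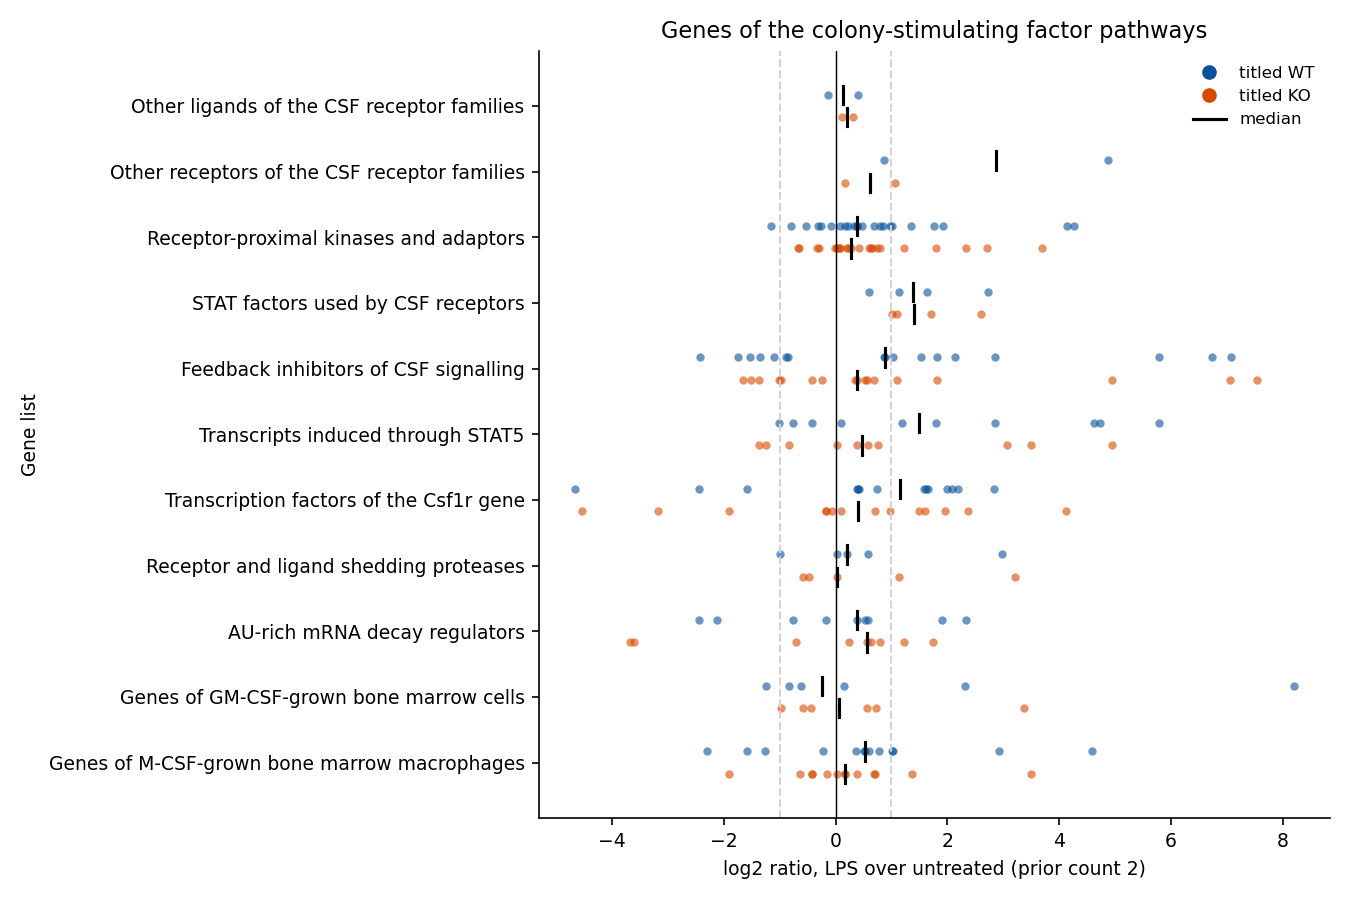
Log2 ratio with LPS over without for each gene of 11 lists with a mean of at least 1 CPM, 1 point per gene, for WT-titled libraries and titled KO, with black ticks for list medians and dashed lines at 2-fold. For the genes labelled as induced through STAT5, the direction in which STAT5 acts was not checked. The 4 STAT genes all lie right of 0 at this scaling (Stat5b would lie at -0.02 for WT-titled libraries with library totals), while the feedback inhibitors spread to both sides, with Socs3 and Socs1 above 6.73 for WT-titled libraries.

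The genes whose levels followed each member most closely were found by the distance between centred log2 CPM profiles over the 4 libraries, among 9386 protein-coding genes with a mean of at least 5 CPM. For Csf1 they were Batf2, Mx1 and Tnfaip2, at distances of 0.11, 0.27 and 0.29, and 19 genes lay within 0.5. Csf3 had no gene within 0.5, and the nearest were Flrt3, Cxcl2 and Rhou, at 1.33, 1.42 and 1.68. Cxcl2, a neutrophil-attracting chemokine, had 115 and 179 counts in the untreated libraries titled WT and KO and 2781 and 737 in the LPS libraries. For Csf2rb2 the nearest were Tpcn2, Avpi1 and Tmem206, at 0.17, 0.17 and 0.18, with 75 genes within 0.5. The nearest genes of Csf2rb were Tepsin, Ttbk2 and Ocel1, and 931 genes lay within 0.5. Setd2, H2-DMa and Cmklr1 were nearest to Csf1r, Phtf1, Chmp2b and Gm15446 to Csf2ra, and Cenpj, Dedd and Rpl21 to Csf3r. For those 3 receptor chains 2308, 3193 and 696 genes lay within 0.5, far more than for Csf1 or Csf2rb2. Profiles were centred but not scaled, so a member with a narrow range lies close to any gene with a narrow range.

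Per length, the order of the receptor chains differed between libraries below Csf1r. In the WT-titled untreated library it ran Csf2ra at 87.3 FPKM, Csf2rb2 at 64.4, Csf2rb at 57.0 and Csf3r at 33.8. The KO-titled untreated library put Csf2rb2 first among these, at 115 FPKM, ahead of Csf2ra at 84.7, Csf2rb at 71.5 and Csf3r at 26.0. In both LPS libraries Csf2ra and Csf3r came next after Csf1r, at 103 and 58.3 FPKM in the WT-titled library and at 84.5 and 46.3 in the KO-titled library, with both beta chains below them. Csf1 ranked sixth, below every receptor chain, in all 4 libraries. With 1 library per group, neighbours in these orders have no spread between cultures against which to be compared.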

How the data were processed

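Polyadenylated RNA was selected from 3 µg of input, per the labels' protocols. The authors aligned reads with HISAT2 2.0.5 to mm10, per the submitters' processing notes, while no source used here gives the counting program, strand setting or test. The deposited table gave a read count and the authors' FPKM per gene and library, together with the authors' log2 fold and raw and adjusted p-value in 4 comparisons, per the file headers. A further 8 columns holding values of samples stayed unused. Gene lengths are those deposited by the authors. The members and the gene lists were chosen with earlier results of these data known.

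TMM factors from edgeR scaled the counts (untreated 1.25 for WT and 1.16 for KO titles, LPS-treated 0.820 and 0.840). With 1 library per group, a 2-library comparison called genes with a mean of at least 1 CPM, a log2 CPM ratio (prior count 2) of 2-fold or more and an exact 95% binomial interval excluding no change. Printed folds are without the prior. For the difference of responses a 95% Poisson interval came from the delta method. The common effects of LPS and title used edgeR 4.0.16 (filterByExpr, quasi-likelihood F test, Benjamini-Hochberg), with 1 residual degree of freedom, and ± is the standard error implied by F. DESeq2 1.42.0, limma 3.58.1 (voom), other scalings, filters, fold thresholds, a prior of 0.5 and FPKM plus 1 were alternatives. The fit was tested on simulated data. Named were the 8 members with Fbxw7, Lyz1 and Lyz2, up to 4 called genes of each list by size of ratio, and the 3 nearest profiles of each member with a mean of at least 1 CPM. Hmgxb3, Gm12223, Il3, Il5, Il34, Il3ra, Ly6g, Retnlg and the smaller edgeR changes fall outside that rule and were chosen after their values were seen. Scripts ran in Python 3.11.15 (SciPy 1.17.1, Biopython 1.88) and R 4.3.3. Some genes counted in the lists are not reported here by name.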

Additional observations from a re-analysis of the deposited data

Results flagged for a closer look

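The LPS ratio of Csf2ra was higher between WT-titled libraries and lower between KO-titled libraries, a difference of -0.29 on the log2 scale, with both counting intervals excluding no change. Between KO-titled libraries the ratio was -0.00 with DESeq2 size factors, and with library totals both ratios were lower (-0.41 and -0.56). For Csf1r, Csf2rb and Csf2rb2 the KO-titled library was above the WT-titled library untreated and below it with LPS, with differences of -0.39, -0.79 and -1.92 on the log2 scale. For Csf1r the untreated ratio of 0.03 became 0.00 with DESeq2 size factors and -0.08 with library totals. With 1 library per group, none of these differences was tested against the spread between cultures.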

How the results depend on the processing

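No paired analysis was possible because each group is 1 library and the labels pair no cultures; the common fit holds title as a term. The call of Csf1 in both LPS comparisons was kept under every scaling, filter, prior and fold threshold listed in the methods and, in the common fit, by edgeR, DESeq2, limma-voom and library totals. The number of genes called between LPS and untreated WT-titled libraries, 3747, became 5975 at 1.5-fold, 1415 at 4-fold and 2299 with FPKM plus 1, and the members called, 2, became 1 at a mean of 5 CPM, 4 at 1.5-fold and 4 against the KO-titled untreated library, an alternative added after the Lyz1 levels were seen. Between KO-titled libraries, 3992 genes became 6508, 1379 and 2328 in the same order, and 4 members became 2 at 4-fold. Untreated between titles, 639 genes became 1157 with no filter, 384 at 5 CPM, 1719 at 1.5-fold, 94 at 4-fold and 279 with FPKM plus 1, and 0 members became 1 at 1.5-fold. With LPS between titles, 1014 genes became 549 at 5 CPM, 2321 at 1.5-fold, 166 at 4-fold and 433 with FPKM plus 1, and 2 members became 1 at 5 CPM and 1 at 4-fold. For the LPS effect common to all libraries, 2027 genes became 4059 with library totals, 3797 with no filter, 4485 with treatment alone in the model and 453 at an adjusted p under 0.01. There, 1 member passing became 3 with DESeq2, 2 with library totals, 4 with no filter and 3 with treatment alone. With treatment alone and each library left out in turn, 2573 to 3029 genes and 2 to 4 members passed, the group left with 1 library being assumed to vary like the other. For title, 0 genes became 2 with no filter. Of 386 single-gene values under alternatives, 328 kept their side of the threshold or stayed within their interval, 27 moved, 23 gained and 8 lost the call, and 0 changed the sign of a call. The cause of these changes was not tested beyond what a fewer or larger number of genes tested sets. Depth limits Csf2 and untreated Csf3, with at most 2 counts.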
